A study of Homo sapiens with 9 samples.

Results

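The genes described here encode RNA polymerase II and the general transcription factors. They were taken by symbol (the TAF genes, the GTF2 and GTF3 genes, POLR2A to POLR2M, TBP and TBPL1) from the annotation of the array, and 45 genes of the 14232 tested had a probe set that named them alone. The cells were PANC-1, a line of human pancreatic carcinoma origin, harvested 72 h after treatment. Cells labelled miR520 (miR-520f cells) received 20 nM of a synthetic mimic of the microRNA miR-520f, cells labelled NC (negative control) received 20 nM of a control mimic, and cells labelled NT (non-transfected) received Lipofectamine RNAiMAX, the lipid carrier, with no mimic. Each group held 3 arrays labelled as biological replicates, and all values are log2 intensities after RMA, which corrects background, gives the arrays a common distribution and reduces each probe set to 1 value. The labels do not say how the cultures were separated, so each p-value is set against the spread between arrays alone, which may be technical. A mimic in excess is a model of a high microRNA level, and these data come from a single cell line. RNA came from whole cultures, in which a change in every cell and a change in the share of cells that hold a transcript cannot be told apart.

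RNA polymerase II makes messenger RNA but cannot find a promoter alone. TFIID, built from the TATA-binding protein TBP and its associated factors, the TAFs, marks the start site. TFIIA and TFIIB stabilise TBP on DNA and bring the polymerase in with TFIIF, and TFIIE and TFIIH then open the DNA and release the enzyme. TBP also serves RNA polymerase I, in the SL1 complex, and RNA polymerase III, for which TFIIIA and TFIIIC are the DNA-binding factors. A microRNA pairs through its seed, the bases near its 5′ end, with messenger RNAs and lowers their level or translation. The label of the mimic does not name the arm, so both mature arms of MIR520F are shown from RefSeq (GRCh38.p14), 5′ to 3′ with the seed (bases 2 to 8) in capitals, beside the mature forms of MIR373 and MIR302A, whose sequences carry the seed of the 3p arm shifted by a single base.
hsa-miR-520f-3p: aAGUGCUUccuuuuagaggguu
hsa-miR-520f-5p: cCUCUAAAgggaagcgcuuucu
hsa-miR-373-3p: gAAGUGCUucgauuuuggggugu
hsa-miR-302a-3p: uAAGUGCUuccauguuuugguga
The 3p arm lies at chr19:53682213-53682234 and the 5p arm at chr19:53682173-53682194, both on the plus strand. Among 2370 mature microRNAs in the RefSeq table, only hsa-miR-520f-3p carries these 7 bases at positions 2 to 8, and 11 others, of the miR-302, miR-373 and miR-520 families, carry them at positions 3 to 9. No transcript sequences were used, so target sites in the members' messages were not searched.

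The arrays had medians of 4.22 to 4.34 and no array repeated another. Replicate 1 of NC lay farthest from its group over the 45 genes, with a root mean square deviation of 0.205 against 0.106 to 0.175 for the other arrays. The 8 markers chosen for the line (keratins, EPCAM, CDH1, SOX9 and VIM) had a median of 8.66 in miR-520f cells, 8.54 in NC cells and 8.52 in NT cells, although KRT7 was near the lower end of the scale (3.46, 3.50 and 3.46). Of these 8, EPCAM (1.68 against NC and 1.57 against NT) and CDH1 (1.15 and 1.07) rose and KRT19 (-0.68 and -0.75) and VIM (-0.24 and -0.23) fell against both controls by limma. CD68 also fell (-0.90 and -1.31). The part of these markers in the results of the members was not tested. Of the endothelial, acinar and endocrine markers measured, the brightest was at 3.45 in miR-520f cells, 3.58 in NC cells and 3.47 in NT cells. Fibroblast and immune markers were also dim, with medians of 3.32 and 3.74 in miR-520f cells, 3.43 and 3.81 in NC cells and 3.35 and 3.80 in NT cells, apart from COL1A1 (7.78, 7.58 and 8.17) and CD68 (7.35, 8.24 and 8.65). The members averaged between 2.88 and 10.9 with a median of 7.33, where the median of all genes was 4.53, and 2 members, TAF7L and TAF1A, lay below the lower quartile of 3.26.

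A few named components of the machinery changed against both controls, and most did not pass. TBP, TAF5, GTF2A1, GTF3A and GTF3C5 were higher and TAF10 was lower in miR-520f cells than in both controls. These are 6 of 45 members (13.3%) by limma at an adjusted p under 0.05, beside 18.0% of all genes (9.37% higher and 8.61% lower). The submitters' design text counts as targets of the microRNA the genes changed against both controls. Without NC replicate 1 all 6 calls held and POLR2D was called higher as well. Leaving out miR-520f replicate 2 raised the count of lower members to 2, with POLR2L as the addition.

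The 2 controls gave different pictures. Against NC, 14 members rose and 4 fell, which is 40.0% of the members beside 28.1% of all genes (15.4% higher and 12.6% lower). The members were brighter than the median gene (7.33 against 4.53), and the shares of all genes were not matched for level. Against NT, 8 rose and 2 fell, which is 22.2% beside 27.6% (14.5% higher and 13.1% lower). NC cells themselves differed from NT cells in 10 members, 4 higher and 6 lower, again 22.2%, beside 15.3% (996 genes higher and 1178 lower, or 999 and 924 with arrays centred on the median). The median log2 fold change of the members was 0.17 against NC and 0.037 against NT, where the medians over all genes were -0.031 and -0.026. In all, 12 members passed against NC alone, 4 against NT alone, 6 against both and 23 against neither, and 0 passed against both with opposite signs. The count of members lower than NC was the least stable, with 7 when miR-520f replicate 3 was left out, and 2 without miR-520f replicate 1 or NC replicate 2. Without NT replicate 1, 2 members rather than 4 were higher in NC than in NT. The 3 miR-520f arrays lay above all 6 control arrays for 6 members and below them for 1, beside 25.4% of all genes that lay apart (13.2% above and 12.1% below). The plot of fold changes by complex shows how often the filled symbols of the comparisons part.

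**Figure D1:**
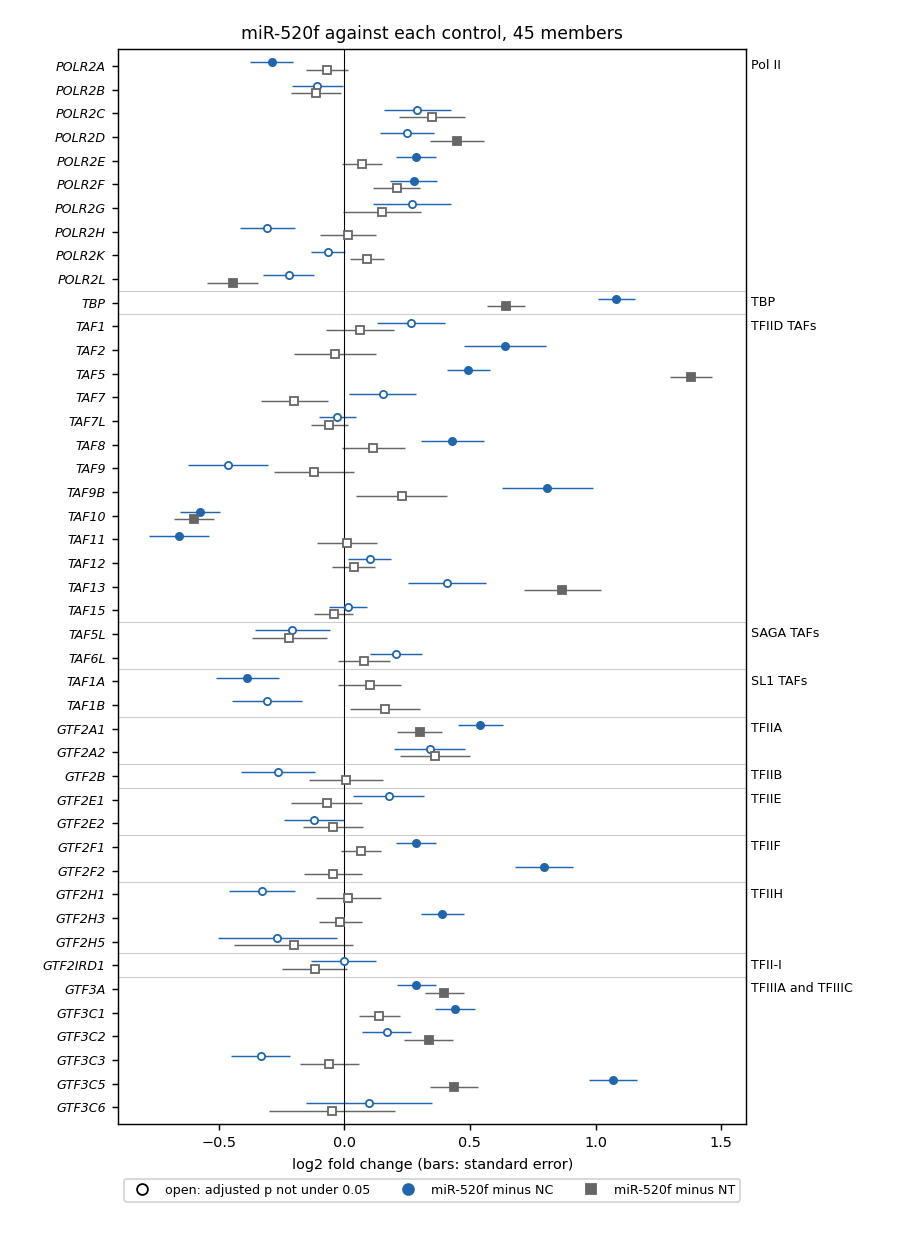
Log2 fold change of miR-520f cells against NC cells (blue circles) and against NT cells (grey squares) for the 45 members, grouped by complex, with standard errors from limma as bars and 3 arrays a group. Filled symbols passed at an adjusted p under 0.05; TBP, TAF5, GTF2A1, GTF3A and GTF3C5 lie to the right and TAF10 to the left of 0 in both comparisons with both symbols filled.

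TBP, the subunit that bends promoter DNA, had the largest rise of all members by the smaller of its fold changes. Its levels were 9.25, 9.20 and 9.36 on the miR-520f arrays, against 8.26, 8.21 and 8.10 on the NC arrays and 8.68, 8.59 and 8.62 on the NT arrays. The groups did not overlap, and NC cells were the lowest. The log2 fold changes were 1.08 against NC (SE 0.075, limma adjusted p = 1.93e-06) and 0.64 against NT (limma adjusted p = 7.70e-05). NC lay below NT by a log2 fold change of -0.44 (limma adjusted p = 0.00256), so the rise against NC was the larger.

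Among 13 measured TAFs of TFIID, 4 rose and 2 fell against NC, and 2 rose and 1 fell against NT. Of all genes, 15.4% rose and 12.6% fell against NC, and 14.5% rose and 13.1% fell against NT. TAF5 is a scaffold subunit with WD40 repeats. It measured 5.89, 6.02 and 5.92 in miR-520f cells, against 5.29, 5.53 and 5.53 in NC cells and 4.58, 4.49 and 4.63 in NT cells. The 3 groups formed separate steps, with NC in the middle. TAF5 rose by 0.49 against NC (SE 0.085, limma adjusted p = 0.00105) and by 1.38 against NT (limma adjusted p = 8.79e-07), and NC exceeded NT by 0.89 (limma adjusted p = 9.02e-05), the largest difference between the controls of any member. Between the controls, TAF5 and TBP thus differed in opposite directions.

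TAF10, a small histone-fold subunit that TFIID shares with the coactivator SAGA, was the single member that fell against both controls. Its levels were 10.51, 10.57 and 10.45 in miR-520f cells, 10.99, 11.19 and 11.07 in NC cells and 11.18, 11.12 and 11.01 in NT cells. Both controls lay above every miR-520f array and overlapped each other. The log2 fold changes were -0.58 against NC (SE 0.079, limma adjusted p = 0.000246) and -0.60 against NT (limma adjusted p = 0.000194). The calls of TBP, TAF5, TAF10 and GTF3C5 against each control passed under every alternative setting that was run.

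The remaining TAFs of TFIID passed against 1 control or neither. TAF2, a large subunit that contacts DNA around the start site, measured 8.90, 8.89 and 8.90 in miR-520f cells, 7.78, 8.45 and 8.53 in NC cells and 8.80, 9.04 and 8.97 in NT cells. Here the NC arrays were the low ones, NC replicate 1 by a wide margin, and miR-520f and NT arrays overlapped. TAF2 was therefore higher than NC by 0.64 (SE 0.16, limma adjusted p = 0.0118) and differed from NT by -0.04 (limma adjusted p = 0.927), and the call against NC was lost without moderation of the variance (adjusted p = 0.0775). Without NC replicate 1 the difference from NC was 0.40, and NC lay below NT by a log2 fold change of -0.44 in place of -0.68. That call between the controls was lost without NT replicate 2 or 3. TAF8 (0.43) and TAF9B (0.81) also rose against NC alone. Their calls too were lost without moderation of the variance, where 1 of the 4 rises against NC, that of TAF5, was left. TAF11, the histone-fold partner of TAF13, fell against NC alone (-0.66), and TAF13 rose against NT alone (0.87, beside 0.41 against NC with limma adjusted p = 0.0750). TAF1, TAF7, TAF7L, TAF9, TAF12 and TAF15 passed in neither comparison.

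**Figure D2:**
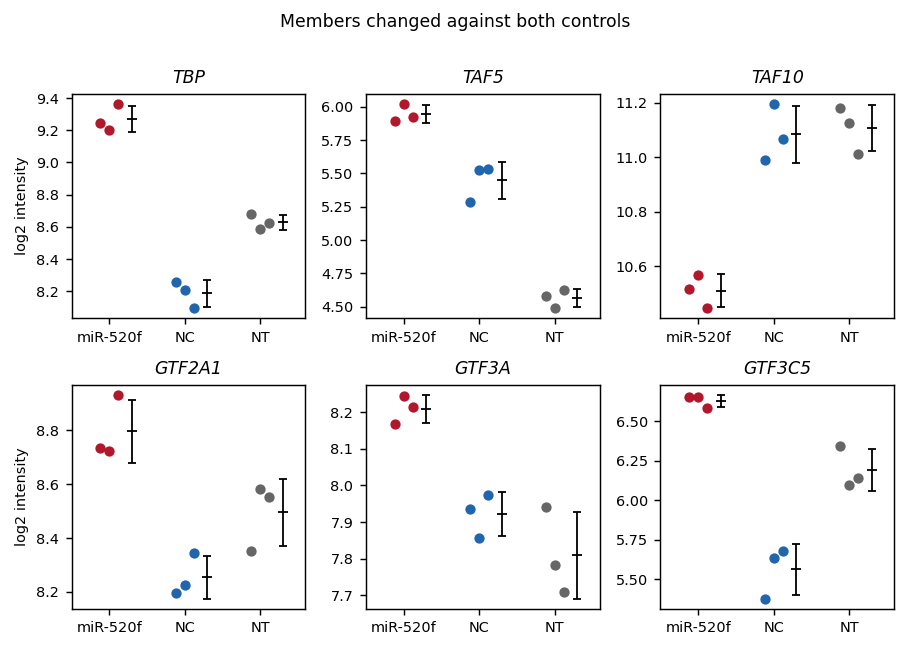
Log2 intensity of the 6 members changed against both controls, 1 point per array, with the mean and SD of the 3 arrays of a group beside the points. The y axes differ between panels and do not start at 0; in each panel the 3 miR-520f points lie apart from all 6 control points.

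Some TAFs have relatives that act in other complexes or in particular tissues, and the per-array log2 ratio of the members of a pair shows whether they responded alike. Of 3 pairs with both genes measured, TAF5 moved up relative to TAF5L, its counterpart in SAGA, by 1.15 in miR-520f arrays over the 6 control arrays (exact two-sided permutation test, p = 0.0238, adjusted p = 0.0714 over 3 pairs). TAF9 moved down relative to TAF9B by a log2 ratio of -0.81 (exact permutation p = 0.0476, adjusted p = 0.0714). TAF7 and TAF7L differed by 0.020 (exact permutation p = 0.929). None of the 3 passed after adjustment, and with 3 arrays against 6 the smallest p is 0.0238. The sizes depended on the control: for TAF5 and TAF5L the difference was 0.70 against NC and 1.599 against NT, for TAF9 and TAF9B -1.27 and -0.35, and for TAF7 and TAF7L 0.18 and -0.14. The permutation treats NC and NT arrays as 1 group, although TAF5 differed between them.

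Beside TAF10 and the other TAFs that TFIID shares with it, SAGA, a histone acetylating coactivator, has the TAF-like subunits TAF5L and TAF6L, and neither passed in any comparison, also at an unadjusted p under 0.05. TAF5L measured 5.88, 5.60 and 5.81 in miR-520f cells, 6.11, 6.15 and 5.65 in NC cells and 6.25, 5.81 and 5.89 in NT cells, with overlapping groups and log2 fold changes of -0.21 against NC and -0.22 against NT (limma adjusted p = 0.382 and 0.376). SL1, which places RNA polymerase I on ribosomal DNA, was represented by TAF1A and TAF1B. Both were higher in NC than in NT, by 0.49 and 0.47 (limma adjusted p = 0.0241 and 0.0439), but neither call held without moderation of the variance. The call of TAF1A was also lost without NC replicate 2 and without NT replicate 1 or 2. That of TAF1B was also lost when any single NC or NT array or miR-520f replicate 1 was left out, and with median centring. TAF1A, near the lower end of the scale, had 2.48, 2.95 and 2.94 in miR-520f cells, 3.04, 3.30 and 3.17 in NC cells and 2.70, 2.57 and 2.79 in NT cells. It fell against NC (-0.39, SE 0.13, limma adjusted p = 0.0416) and not against NT (0.10), and the call against NC was lost under 9 of 16 alternatives, among them those without miR-520f replicate 1 (-0.23), NC replicate 2 or 3 and NT replicate 1 or 3.

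Of 10 measured subunits of RNA polymerase II, 2 rose (POLR2E and POLR2F, 0.28 each) and 1 fell (POLR2A) against NC, while POLR2D rose (0.45) and POLR2L fell (-0.45) against NT. POLR2F only just passed against NC (limma adjusted p = 0.0460), and without moderation of the variance 1 of these 2 rises was left. The shares of all genes were 15.4% higher and 12.6% lower against NC, and 14.5% and 13.1% against NT. By limma 0 passed against both controls, beside 18.0% of all genes. At an unadjusted p under 0.05, 2 did so, and in the fit without moderation of the variance 0 did. POLR2A, the largest subunit, whose tail of repeats is phosphorylated as transcription proceeds, measured 8.50, 8.60 and 8.61 in miR-520f cells, 8.80, 8.91 and 8.87 in NC cells and 8.77, 8.66 and 8.48 in NT cells. The miR-520f arrays were below all NC arrays and among the NT arrays. Its log2 fold changes were -0.29 against NC (SE 0.085, limma adjusted p = 0.0246) and -0.07 against NT (limma adjusted p = 0.680), and 6 of 17 alternatives ended the call against NC, centring on the median and leaving out miR-520f replicate 1 or 2 or NC replicate 2 or 3 among them. Over the 10 subunits the fold changes ran between -0.31 and 0.29 against NC and between -0.45 and 0.45 against NT. The subunits that the 3 nuclear polymerases share split as well, with POLR2E and POLR2F higher than NC, POLR2L lower than NT, and POLR2H and POLR2K not called.

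TFIIA, which steadies TBP on the promoter, rose in part. GTF2A1 encodes its large precursor and measured 8.73, 8.72 and 8.93 in miR-520f cells, 8.195, 8.22 and 8.34 in NC cells and 8.35, 8.58 and 8.55 in NT cells. The miR-520f arrays were above every control array. It rose by 0.54 against NC (SE 0.089, limma adjusted p = 0.000832) and by 0.30 against NT (limma adjusted p = 0.0271), and the call against NT was lost without miR-520f replicate 3, without NT replicate 1 and without moderation of the variance (adjusted p up to 0.113). The small subunit GTF2A2 had log2 fold changes of 0.34 and 0.36 that did not pass (limma adjusted p = 0.104 and 0.0873).

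TFIIB, TFIIE, the GTF2H genes of TFIIH and GTF2IRD1 of the TFII-I family had 0 members that passed against both controls by limma. The share of all genes was 18.0%, so a count of 0 among so few genes says little. GTF2H3 passed against NC alone (0.39, limma adjusted p = 0.00517). The count was also 0 at an unadjusted p under 0.05 and without moderation of the variance. For TFIIH this covers GTF2H1, GTF2H3 and GTF2H5, while ERCC2, a TFIIH subunit read from a further list, rose against both controls (0.64 and 0.54). GTF2B, the single subunit of TFIIB, measured 6.33, 5.91 and 6.38 in miR-520f cells, 6.58, 6.67 and 6.15 in NC cells and 6.26, 6.14 and 6.20 in NT cells. These ranges overlapped, with log2 fold changes of -0.26 against NC and 0.0073 against NT, and without NC replicate 3 the difference from NC passed (-0.42). GTF2E2, the small subunit of TFIIE, had 5.56, 5.76 and 5.67 in miR-520f cells, 5.503, 5.82 and 6.03 in NC cells and 5.65, 5.69 and 5.79 in NT cells. Its groups overlapped too, as did those of GTF2E1, and neither passed (GTF2E2 -0.12 and -0.05, GTF2E1 0.18 and -0.07, against NC and NT). GTF2H5, a small TFIIH subunit that keeps the complex stable, had 7.33, 6.40 and 7.59 in miR-520f cells, 7.23, 7.46 and 7.43 in NC cells and 7.16, 7.39 and 7.39 in NT cells. Its miR-520f replicate 2 stood well below the other 8 arrays, and the differences did not pass (-0.27 against NC and -0.20 against NT). Without that array both were positive (0.087 and 0.15). GTF2IRD1, a TFII-I relative that binds DNA sequence-specifically, had 4.96, 4.46 and 4.38 in miR-520f cells, 4.64, 4.65 and 4.51 in NC cells and 4.76, 4.67 and 4.73 in NT cells. The miR-520f arrays spread around the controls, and GTF2IRD1 passed against NT when miR-520f replicate 1 was left out (-0.30).

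TFIIF escorts the polymerase to the promoter. Its small subunit GTF2F2 measured 6.58, 6.47 and 6.59 in miR-520f cells, 5.52, 5.79 and 5.94 in NC cells and 6.78, 6.44 and 6.55 in NT cells. All NC arrays were below the other 6, which overlapped. GTF2F2 was higher than NC by 0.79 (SE 0.12, limma adjusted p = 0.000378) and differed from NT by -0.05 (limma adjusted p = 0.866), and NC fell below NT with a log2 fold change of -0.84 (limma adjusted p = 0.000815). The large subunit GTF2F1 also rose against NC (0.28, limma adjusted p = 0.0203) and not against NT (0.07), and its difference between NC and NT, -0.22, did not pass (limma adjusted p = 0.102).

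In 8 of the 18 members called against NC (44.4%), NC also differed from NT with the opposite sign, as it did in 1014 of the 3996 genes called against NC (25.4%). Of those 8 members, 6 (GTF2F2, GTF2H3, GTF3C1, TAF2, TAF11 and TAF1A, picked after their values were seen) did not pass against NT, which is 33.3% of the 18, beside 16.4% of the 3996 genes. GTF2H3, a TFIIH core subunit, was higher than NC by 0.39 (limma adjusted p = 0.00517), with -0.02 against NT and -0.41 for NC against NT (limma adjusted p = 0.00865). TAF11 differed by -0.66 from NC and by 0.0093 from NT, with NC above NT by 0.67 (limma adjusted p = 0.00361). These comparisons share the NC arrays, so the level of the NC group enters both with opposite signs. The part of the control mimic and of NC replicate 1 in these differences was not tested beyond the fits without that array, in which the calls of GTF2F2 and TAF2 against NC held.

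**Figure D3:**
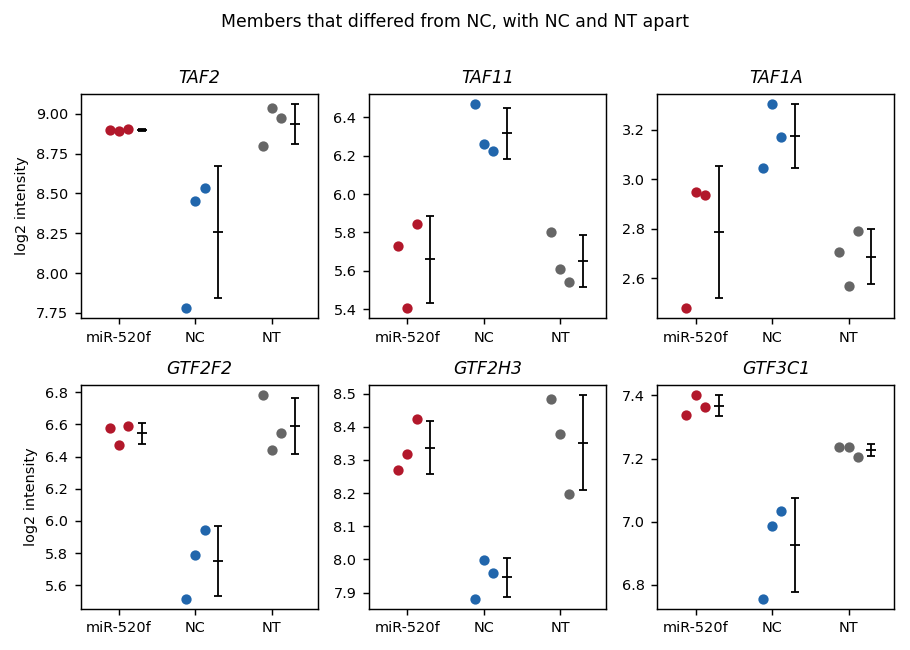
Log2 intensity of the 6 members that differed from NC and not from NT while NC differed from NT, 1 point per array, with mean and SD of the 3 arrays of a group. The y axes differ between panels and do not start at 0; the NC points lie apart from the NT points in each panel, and the miR-520f points overlap the NT points in all but GTF3C1.

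Among the genes of TFIIIA and TFIIIC, 3 of 6 rose against each control, with 2 in common. Of all genes, 15.4% rose against NC, 14.5% against NT and 9.37% against both. The TFIIIB genes BRF1 and BDP1, read from a further list, did not pass against both controls. BRF1 passed against NC alone (0.43, limma adjusted p = 0.0225, and 0.27 against NT), and its miR-520f arrays lay above all control arrays. TFIIIA, encoded by GTF3A, is a zinc finger protein that binds the 5S ribosomal RNA gene. It measured 8.17, 8.24 and 8.215 in miR-520f cells, 7.94, 7.86 and 7.97 in NC cells and 7.94, 7.78 and 7.71 in NT cells. Every miR-520f array was above every control array. The rise was 0.29 against NC (SE 0.077, limma adjusted p = 0.0163) and 0.40 against NT (limma adjusted p = 0.00249), and the call against NC was lost without miR-520f replicate 2 and without NC replicate 2 (adjusted p up to 0.0644).

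GTF3C5 encodes a subunit of the DNA-binding part of TFIIIC. Its levels were 6.65, 6.65 and 6.59 in miR-520f cells, 5.38, 5.64 and 5.68 in NC cells and 6.35, 6.09 and 6.14 in NT cells. The groups did not overlap, and as for TBP the NC arrays were the lowest. GTF3C5 rose by 1.07 against NC (SE 0.096, limma adjusted p = 1.19e-05) and by 0.44 against NT (limma adjusted p = 0.00520), with NC below NT by a log2 fold change of -0.63 (limma adjusted p = 0.00132). GTF3C1, the largest TFIIIC subunit, passed against NC alone (0.44) although its miR-520f arrays lay above all control arrays, and GTF3C2 passed against NT alone (0.34). GTF3C3 and GTF3C6 passed in neither comparison.

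**Figure D4:**
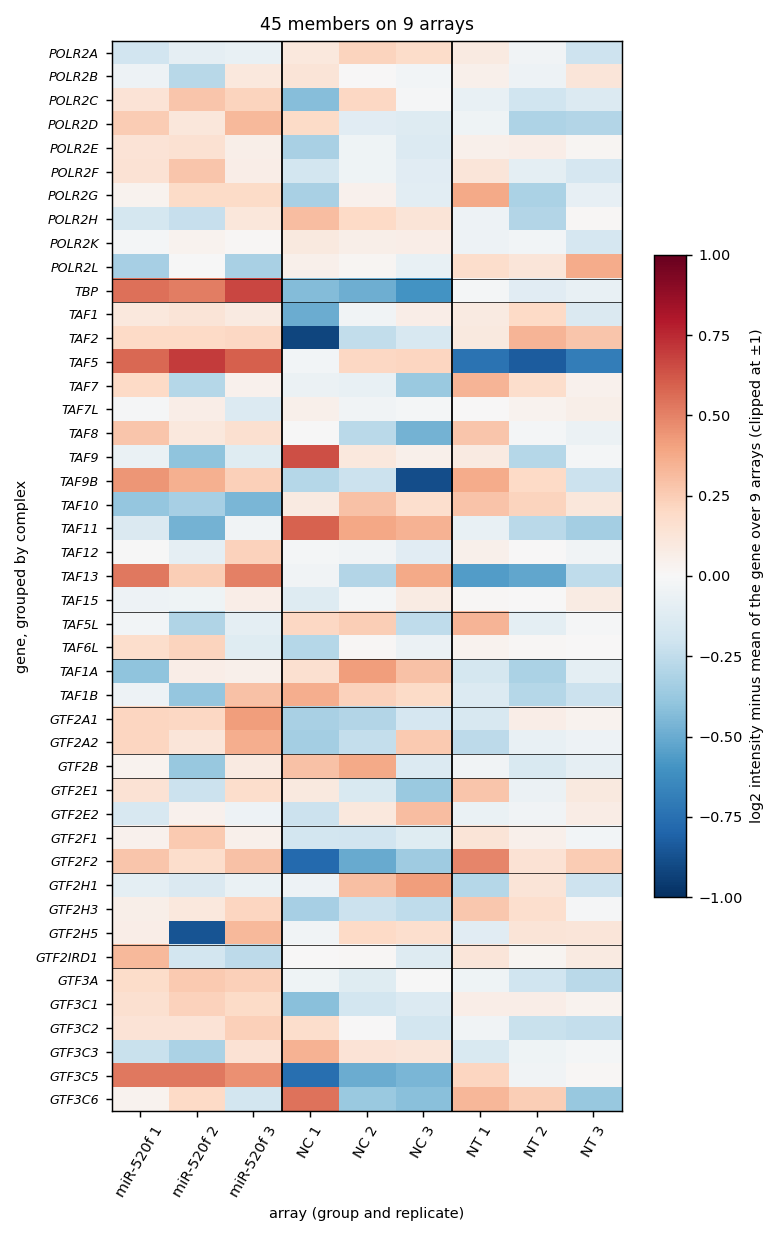
Log2 intensity of the 45 members on each of the 9 arrays, minus the mean of the gene over all arrays, with genes grouped by complex and colours clipped at 1 in either direction. Red is above and blue below the gene's own mean; TBP and GTF3C5 are red in miR-520f cells and blue in NC cells, TAF5 is red in miR-520f cells and blue in NT cells, and GTF2H5 is blue on miR-520f replicate 2.

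The proteins that work beside this machinery were read from 6 further lists, of which 63 genes were measured. Against both controls 11 rose and 6 fell, 27.0% beside 18.0% of all genes. These shares were not matched for level either. The count of rises was 6 without miR-520f replicate 1 and 7 without miR-520f replicate 2 or 3, NC replicate 2 or NT replicate 3. Among 10 genes for proteins that displace or oppose TBP or belong to SAGA, 0 rose and 2 fell, DR1 and DRAP1. Of all genes, 9.37% rose and 8.61% fell against both controls. At an unadjusted p under 0.05 and in the fit without moderation of the variance, 0 of the 10 rose against both controls. BTAF1, on the same list, had 0.29 against NC and 0.40 against NT, which did not pass (limma adjusted p = 0.176 and 0.0573). The products of DR1 and DRAP1 form a heterodimer that binds TBP on the promoter and blocks TFIIA and TFIIB. DR1 measured 6.75, 6.58 and 6.83 in miR-520f cells, 7.53, 7.24 and 7.35 in NC cells and 7.53, 7.30 and 7.16 in NT cells. Each miR-520f array lay below all controls, which overlapped, and DR1 fell by 0.65 against NC (SE 0.11, limma adjusted p = 0.00108) and by 0.61 against NT (limma adjusted p = 0.00180). DRAP1 measured 9.87, 9.99 and 9.97 in miR-520f cells, 10.10, 10.71 and 10.80 in NC cells and 10.59, 10.58 and 10.54 in NT cells. It fell by 0.59 against NC (SE 0.15, limma adjusted p = 0.0111) and by 0.63 against NT (limma adjusted p = 0.00825), with NC replicate 1 far below the other NC arrays, and both calls were lost without moderation of the variance (adjusted p = 0.0712 and 0.0604).

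Of 20 pausing and elongation genes, 4 rose and 2 fell against both controls, beside 9.37% and 8.61% of all genes. These as well as the next genes are given with the fold change against NC and then against NT. PAF1, which gives its name to the PAF1 elongation complex, fell (-0.77 and -0.67, limma adjusted p = 7.24e-06 and 2.20e-05), whereas CTR9 (0.24 and 0.72) and RTF1 (0.79 and 0.39), of the same complex, rose. CTR9 only just passed against NC (limma adjusted p = 0.0463). In the same complex LEO1 passed against NC alone (0.57 and 0.29) and CDC73 in neither comparison (-0.07 and 0.06). LARP7, which holds the 7SK RNA that restrains the kinase P-TEFb, fell (-0.80 and -0.77), and CCNT2, a cyclin of P-TEFb (0.58 and 1.03), and the elongation factor ELL2 (0.40 and 0.60) rose. Of 14 genes for subunits and factors of RNA polymerases I and III, POLR3B (0.56 and 0.87), POLR1D (0.51 and 0.39), POLR1E (0.34 and 0.63) and POLR3K (0.38 and 0.30) rose, and POLR3GL (-0.70 and -0.57) fell. POLR3K only just passed against NT (limma adjusted p = 0.0496), and its miR-520f and NT arrays overlapped. Without moderation of the variance, 2 of these 4 rises held, that of POLR3B among them. In TFIIH the helicase gene ERCC2 rose (0.64 and 0.54), 1 of 3 measured subunits outside the GTF2H series. SNAPC3, of the complex that starts small nuclear RNA genes, fell (-0.52 and -0.51), 1 of 5 measured SNAPC genes. Of the TFIIIB genes, BRF1 passed against NC alone and BDP1 in neither comparison. Among 9 assembly factors and phosphatases of RNA polymerase II, RPRD1B (0.52 and 0.59) and RPAP3 (0.34 and 0.36) rose, the calls of RPRD1B being lost under 4 and 4 of 17 alternatives and those of RPAP3 under 9 and 7. The arrays that ended a call of RPRD1B when left out were miR-520f replicate 2, NC replicates 2 and 3 and NT replicates 2 and 3, and for RPAP3 they were all 3 of miR-520f, NC replicates 1 and 2 and NT replicates 1 and 3. RPRD1A, named after its values were seen, passed with opposite signs (0.56 and -0.60), with NC below NT by a log2 fold change of -1.16.

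**Figure D5:**
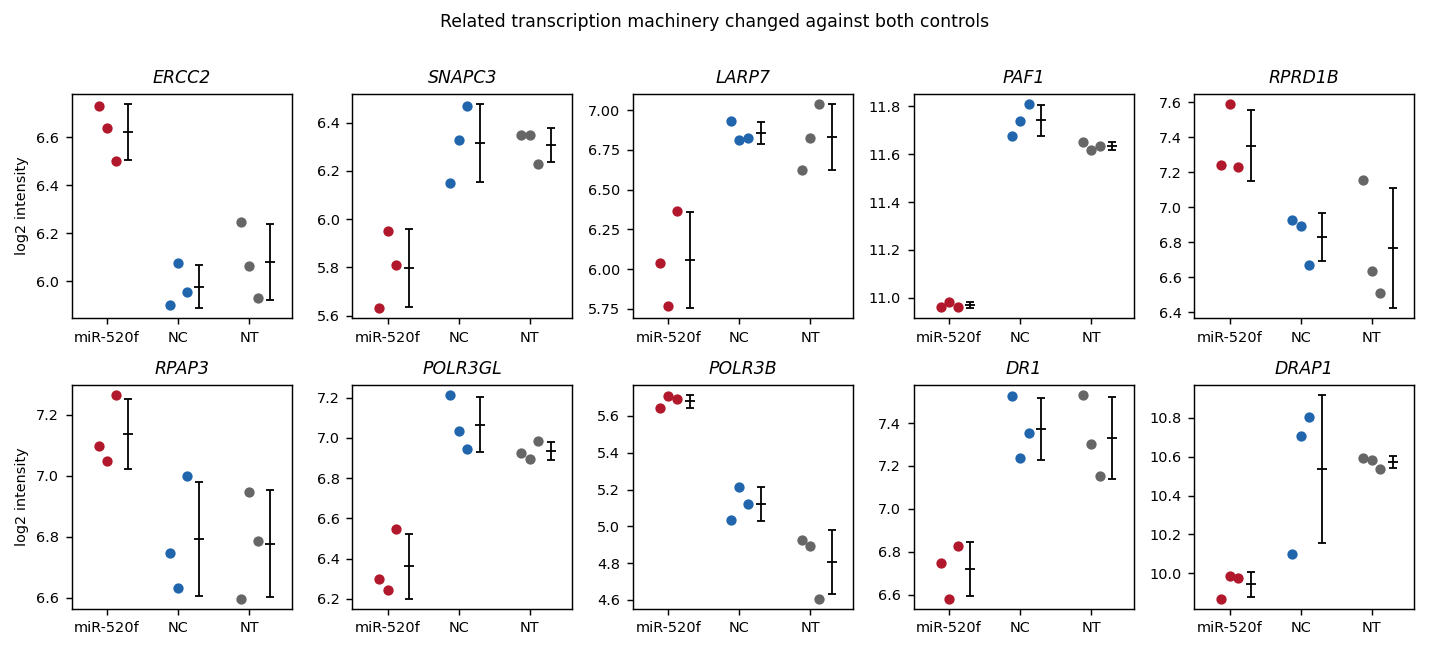
Log2 intensity of 10 genes of related transcription machinery that changed against both controls, up to 2 per list, 1 point per array, with mean and SD of the 3 arrays of a group. The y axes differ between panels and do not start at 0; PAF1, LARP7, SNAPC3, POLR3GL, DR1 and DRAP1 are lower and ERCC2, RPRD1B, RPAP3 and POLR3B higher in miR-520f cells, with NC replicate 1 of DRAP1 close to the miR-520f points.

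Promoters are shown for the 6 members that moved against both controls, since they are the DNA on which this machinery assembles. Each is the 100 bases before the RefSeq start (GRCh38.p14), 5′ to 3′ on the strand of the gene, with matches to 4 short motifs on either strand in capitals: TATAAA, which is the TATA box, CCAAT, which is the core of sites of the factor NF-Y, GGGCGG, which is the GC box, and CGGAAG, which is the core of sites of ETS factors. GTF2A1 has 2 starts in the table and the first is shown.
TBP, chr6:170554269-170554368, plus strand: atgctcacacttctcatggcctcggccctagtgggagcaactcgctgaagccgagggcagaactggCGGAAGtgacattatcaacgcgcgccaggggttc
TAF5, chr10:103367876-103367975, plus strand: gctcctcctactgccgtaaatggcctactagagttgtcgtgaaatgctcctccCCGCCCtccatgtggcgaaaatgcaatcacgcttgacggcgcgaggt
TAF10, chr11:6612217-6612316, minus strand: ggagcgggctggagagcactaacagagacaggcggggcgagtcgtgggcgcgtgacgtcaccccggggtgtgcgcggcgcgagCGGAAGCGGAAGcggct
GTF2A1, chr14:81221391-81221490, minus strand: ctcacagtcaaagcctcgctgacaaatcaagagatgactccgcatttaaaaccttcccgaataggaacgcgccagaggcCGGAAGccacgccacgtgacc
GTF3A, chr13:27424519-27424618, plus strand: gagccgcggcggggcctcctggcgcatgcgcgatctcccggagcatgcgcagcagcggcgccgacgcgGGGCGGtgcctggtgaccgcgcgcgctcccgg
GTF3C5, chr9:133030897-133030996, plus strand: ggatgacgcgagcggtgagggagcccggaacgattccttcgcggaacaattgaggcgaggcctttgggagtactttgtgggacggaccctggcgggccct
TBP, GTF2A1 and TAF10 hold the CGGAAG core in these windows, TAF10 in 2 adjoining copies, TAF5 and GTF3A hold a GC box, and GTF3C5 holds none of the 4. TAF10 is the single gene here that fell, so these letters cannot show whether rising and falling members differ. Over the 250 bases before the start, GTF3C5, TBP and TAF10 also hold a GC box, and TBP and TAF5 hold CCAAT.

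Over the 250 bases before the start, 49 promoters of 39 members were in the table. CGGAAG on either strand was in 51.0% of them, against 20.2% of 16426 promoters of the tested genes and 16.5% of all 35116 promoters. TATAAA was in 4.1% of the members' promoters, against 8.3% of those of the tested genes and 10.7% of all. GGGCGG was in 55.1%, against 55.4% and 42.6%, and CCAAT in 26.5%, against 32.8% and 32.0%. These shares describe the letters in the windows, which members with several starts enter more than once, and no test was made.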

How the data were processed

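RNA of PANC-1 cells was measured on 9 Affymetrix arrays after biotin labelling, per the labels' protocols. The authors deposited log2 values of 22011 probe sets. Partek 6.6, RMA and build hg18 are named in the submitters' processing notes, without settings. RMA normalizes between arrays and compresses differences of dim probe sets. No scanner values were used, so no gene was called absent, and the sources used here do not give scan or slide batches.

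The platform annotation gave 14432 probe sets a single symbol, 2408 several and 5171 none. For genes with several probe sets the highest mean over 9 arrays was kept, giving 14232 genes, of which 14205 matched RefSeq (GRCh38.p14) by Entrez identifier and 0 symbols changed. Each of the 45 members had 1 such probe set. Another 18 symbols of the rule, TAF4, TAF6, POLR2J and TBPL1 among them, occur on probe sets shared with other genes and were not analysed as members.

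limma 3.58.1 (R 4.3.3) fitted 1 mean per group over all genes, with 6 residual degrees of freedom, empirical Bayes moderation and Benjamini-Hochberg adjustment over all genes; a call is an adjusted p under 0.05. The script was tested on simulated data. Members with array values were POLR2A, TBP, those changed against both controls, the 3 with the largest called difference between NC and NT, and the member with the largest mean change of each complex without one of these; the related lists gave up to 2 genes each. Members and lists were chosen with earlier results of these data known. The alternatives were other scalings, a filter on dim genes, other variance models, only the groups compared, a block for replicate number, averaged probe sets and leaving out each array. The number of arrays limits the precision.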

Additional observations from a re-analysis of the deposited data

How the results depend on the processing

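Of the counts and pair differences, 330 values under an alternative kept their call or stayed near the main count, and 18 moved farther. The margin for near was wide: 10 in place of 14 members higher than NC still counted as near. No pair difference was called in the main fit, so there was no call to reverse. With an array left out the permutation has fewer arrangements and could hardly pass, so pair values that counted as kept say little. Pair differences against NC or NT alone had no test. They counted as kept when within the SD of the control arrays, as 0.70 and 1.599 for TAF5 and TAF5L did beside 1.15. The TAF7 and TAF7L pair difference, not called at 0.020, ranged from -0.078 to 0.20 as single arrays were left out. The cause was not tested where a count moved. With arrays centred on the median, 2 members were lower than NC, against 4, and the split of all genes against NC and NT became 61.2% and 61.7% higher (55.0% and 52.5% without centring; members 87.5% against 77.8% for NC). The share higher against both controls became 60.4%, against 52.1%, and that for NC against NT 52.0%, against 45.8%. Without moderation of the variance, 2 members were lower than NC, 2 were higher in NC than in NT, 536 of all genes were higher and 751 lower in NC than in NT (996 and 1178 with it), and 6 related genes rose against both controls. Leaving out single arrays gave 2 to 7 members lower than NC, 2 to 5 higher in NC than in NT, 1 to 2 lower and 4 to 7 higher against both controls, 6 to 12 related genes higher against both, and, for all genes in NC against NT, 614 to 1041 higher and 780 to 1140 lower. The labels' replicate numbers are not stated to mark a shared culture or day. Same-number deviations correlated between -0.0262 and 0.205, not over 0.1 in every pair, so the samples were not treated as paired, although 11 of 18 best matches were the own number, where 6 would come from numbers that carry nothing. With the replicate block, 7 members were higher and 1 lower than both controls, GTF2A2 and TAF13 being the additions. Averaging probe sets left the members as they were, since each has 1. TAF1A has no value in the fit without the dimmest genes. RMA values give no background, so the precision of dim members such as TAF1A and TAF7L is limited by signal as well as by the 3 arrays a group.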

Other observations

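Probe sets that carry a symbol of these families together with another gene's were kept out of the member counts and are given here as counts, since the signal cannot be assigned to a single gene. In a fit over all 22011 probe sets, 20 of them were tested. Against NC, 1 was higher and 2 were lower, against NT 0 were higher and 1 was lower, and 1 was lower against both controls, where 20.3%, 20.0% and 12.5% of all probe sets passed.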
